A study of Mus musculus with 5 samples.

Results

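The genes described here are 35 named genes of glucose breakdown and of the cellular response to low oxygen, out of 54838 genes listed for each library. They were taken by name and comprise 4 transporters of glucose or lactate, 17 glycolytic enzymes, 3 regulators of glycolysis, 4 components of the oxygen-sensing machinery and 7 further targets of the hypoxia-inducible factors. All 35 were found in the annotation, 34 were above 0 in at least 1 library, and 32 had enough reads to be tested. N2a cells, a mouse neuroblastoma line, received control siRNA in 2 libraries (siCtrl) and siRNA targeting Ewsr1 in 3 libraries (siEwsr1), with RNA taken 24 hours after the last of repeated transfections. The product of Ewsr1 belongs to the FET family of proteins, which bind RNA and DNA. No genotype differed between the groups, and both received lipid transfection. RNA was total RNA depleted of ribosomal RNA, and nothing in the labels ties the libraries to separate cultures, so the spread behind every p-value may be technical. The labels name no oxygen or glucose treatment, so the values describe these genes under the routine culture of a transfection experiment.

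In glycolysis, glucose enters through facilitative transporters, is phosphorylated and split by the upper enzymes, and is turned by the lower enzymes into pyruvate, which lactate dehydrogenase reduces to lactate for export. When oxygen is present, prolyl hydroxylases mark the alpha subunits of the hypoxia-inducible factors (HIF) for degradation. When oxygen falls, the subunits persist, pair with ARNT and raise the transcription of glucose transporters, most glycolytic enzymes, Vegfa and genes of mitochondrial turnover. HIF activity is controlled mainly at the level of the protein, so the level of Hif1a RNA is not a measure of it. Tumour cells commonly run glycolysis at a high rate in the presence of oxygen as well.

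The libraries held 15045774 to 21339459 reads counted to genes. The deposited values are RPKM, reads per kilobase of exon scaled to the library's counted reads. The length takes in every annotated exon of a gene, so a gene whose transcripts use few of them gets a low RPKM. Levels can therefore be compared only roughly between genes. The targeted gene, Ewsr1, stood at 71.7 and 72.3 RPKM in the siCtrl libraries and at 35.7, 36.3 and 37.6 RPKM in the siEwsr1 libraries, a log2 fold change of -0.96 (SE 0.080; limma adjusted p = 0.000861). All 12 fixed markers of noradrenergic neuroblastoma were above 0 in the libraries, and their summed level was 594 to 619 RPKM in siCtrl and 744 to 790 RPKM in siEwsr1. Chgb alone stood at 328 to 348 RPKM in siCtrl and at 449 to 463 RPKM in siEwsr1, so the sum mostly follows that gene. The log2 fold changes of the 12 were above 0 for 9 and below 0 for 3. The summed levels of fixed markers of fibroblasts (7 genes), immune cells (5 genes), endothelium (4 genes) and skeletal muscle (5 genes) each stayed between 0.128 and 1.002 RPKM in every library, and Col3a1, Lum, Cd3e, Itgam, Kdr, Myod1 and Myog were at 0 throughout.

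Most of the glycolytic and hypoxia genes did not pass the test of siEwsr1 against siCtrl, and the 2 that did were both lower. Vegfa, the secreted growth factor of blood vessels, and Pfkfb3, which makes the activator of phosphofructokinase, fell, with log2 fold changes of -0.51 and -0.38. Among the 32 members tested, 0 were called higher, 2 were called lower and 30 were not called, at an adjusted p under 0.05 in limma over 14888 genes. Over all genes tested, 2.75% were called lower and 2.38% higher, 5.13% in all, so the members' count of 2 was near the background. The median log2 fold change was -0.01 over the members and -0.01 over all genes tested. The fold change lay within 0.2 of 0 on the log2 scale for 21 of the 32 members, and 15 members were above 0 and 17 below. The libraries of the 2 groups did not overlap for 6 of the 32, 2 higher (Slc2a3 and Egln1) and 4 lower (Pkm, Pfkfb3, Vegfa and Ndrg1), against 39.9% of all genes tested (18.6% higher and 21.3% lower). An unadjusted limma p under 0.05 was found for 4 members (Slc2a3, Pkm, Pfkfb3 and Vegfa). The share of all genes under that p is not given here, so this count and later ones like it have no background. On the recovered reads, limma-voom also called 0 higher and 2 lower. Other settings called 0 members: the variance trend on mean RPKM, no filter on low reads, and no trend or robust moderation. The trend on mean RPKM was the form fitted first, and the reported form was chosen after that fit had called no member. The 2 calls therefore depend on the settings.

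**Figure D1:**
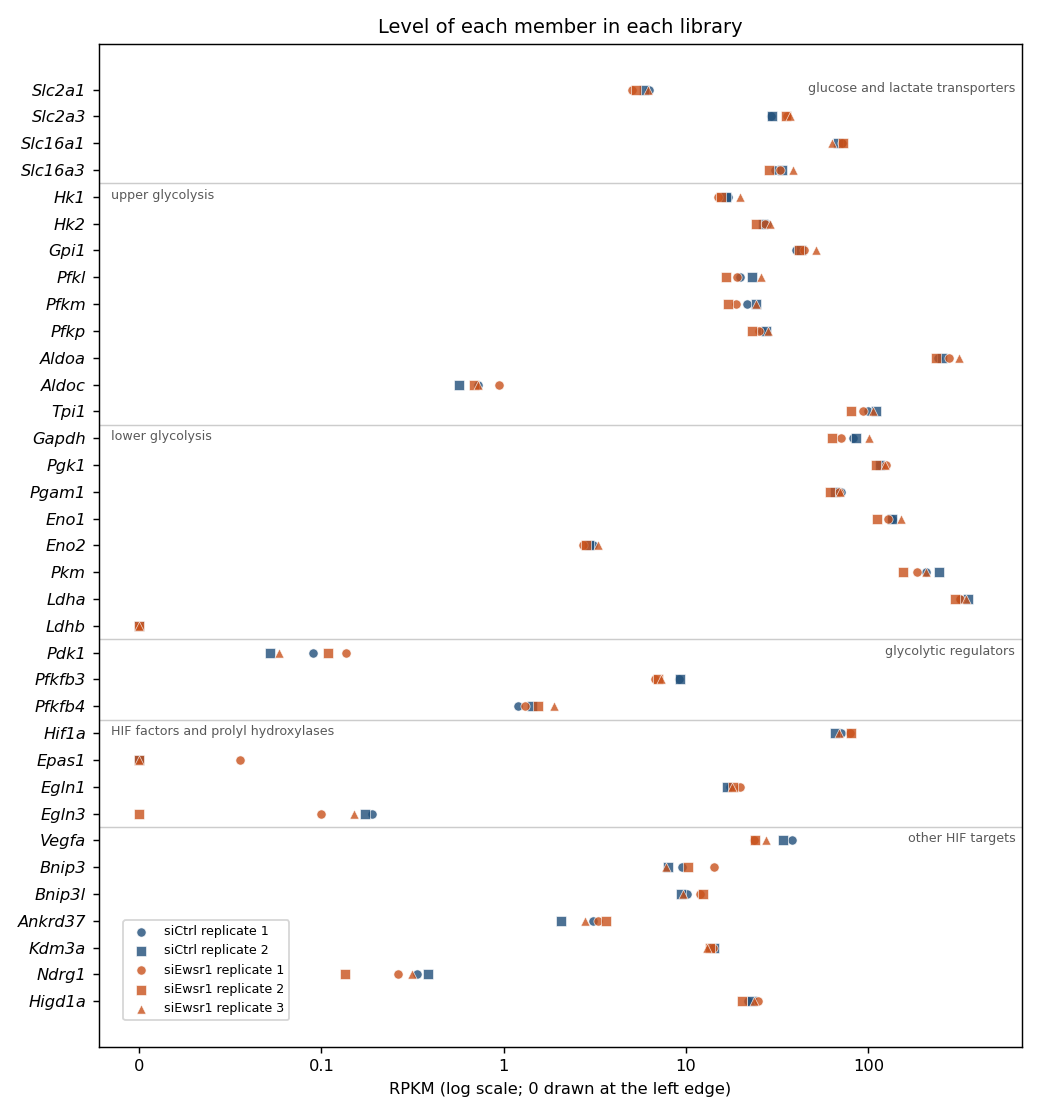
Level of each of the 35 genes in RPKM (log axis, with 0 drawn at the left edge) in the 2 siCtrl libraries (blue) and the 3 siEwsr1 libraries (orange), ordered by role. The members span from Ldhb, at 0 in all libraries, to Ldha, at 297 to 353 RPKM, and for most genes the colours overlap.

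**Figure D2:**
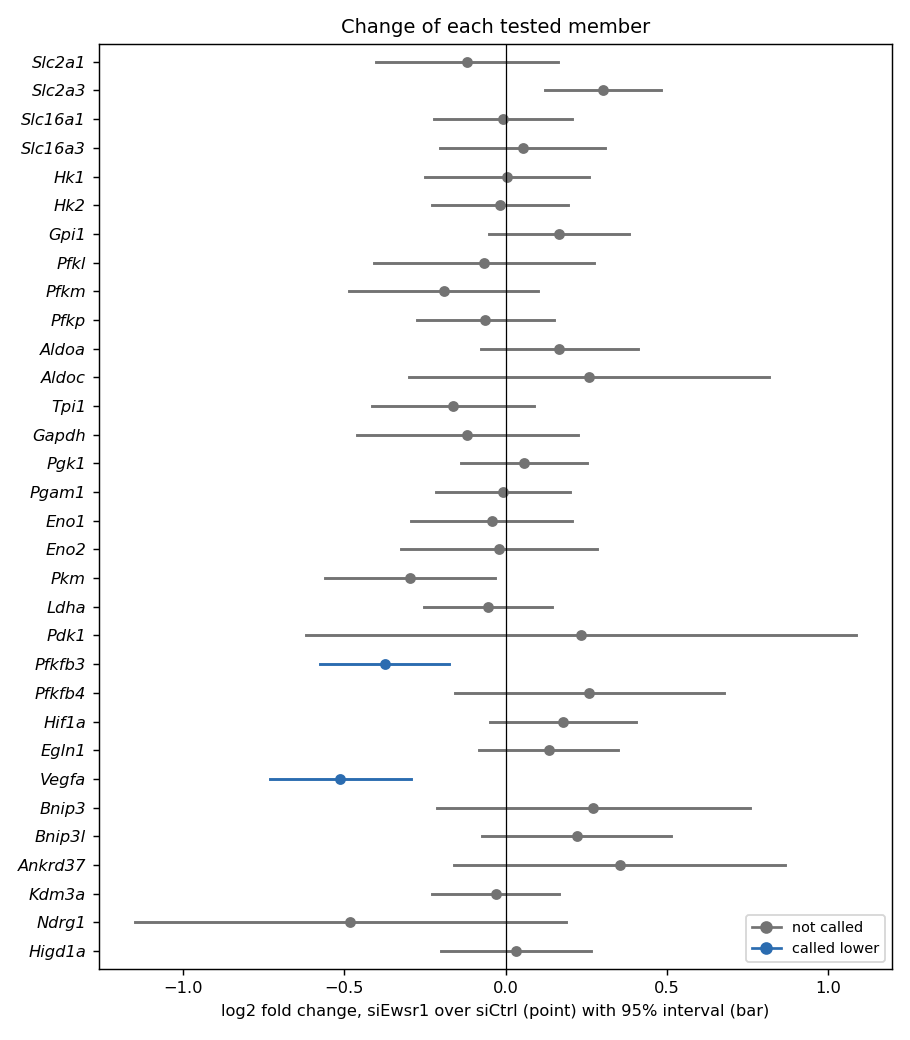
Log2 fold change of siEwsr1 over siCtrl (point) with its 95% interval (bar) for the 32 tested members. Vegfa and Pfkfb3, in blue, are the genes called lower, and the intervals of 28 of the 32 members include 0.

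Of the 2 glucose transporters, Slc2a3 (GLUT3), the high-affinity form of neurons, had the higher RPKM. Slc2a3 (chr6:122727809-122801640) stood at 29.4 and 29.7 RPKM in siCtrl and at 36.0, 35.2 and 37.2 RPKM in siEwsr1. All 3 siEwsr1 libraries were above both siCtrl libraries, and each group was tight. The log2 fold change of 0.30 (SE 0.081, 95% interval 0.12 to 0.48) did not pass over all genes (limma adjusted p = 0.0606). Slc2a1 (GLUT1), the widespread basal glucose transporter, ranged from 5.06 to 6.26 RPKM with overlapping groups and a log2 fold change of -0.12 (SE 0.13). Slc2a3 therefore made up 82.5% and 83.5% of the summed RPKM of the pair in siCtrl and 87.7%, 86.8% and 85.8% in siEwsr1. This share did not overlap between the groups, but 2 libraries against 3 cannot give a two-sided exact permutation p below 0.2, which is the value found (0.8 after adjustment over the 8 shares tested). The lactate carriers Slc16a1 (MCT1) and Slc16a3 (MCT4, the form typical of glycolytic cells) ranged from 63.5 to 72.3 and from 28.6 to 38.6 RPKM. Their log2 fold changes were -0.01 (SE 0.096) and 0.05 (SE 0.11), with overlapping groups, and the sign for Slc16a1 turned under median-of-ratios scaling.

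The enzymes of the upper part of the pathway, from hexokinase to triose phosphate isomerase, gave no call in 9 tested genes, with log2 fold changes from -0.19 to 0.26. Aldoa, the muscle-type aldolase that cleaves fructose 1,6-bisphosphate, was the most abundant of them at 236 to 314 RPKM, while the brain-type Aldoc stood at 0.57 to 0.94 RPKM. A separate annotated gene that is also named Aldoa, next to the first, stood at 4.19 to 5.74 RPKM and was kept apart. By RPKM, Hk2, the inducible hexokinase, exceeded Hk1 in every library, at 59.3% to 64.5% of their sum. The lengths used were 5969 bases for Hk2 and 8532 for Hk1, while their longest coding transcripts are 5513 and 4278 bases. Which of the 2 had more transcripts is therefore uncertain. Log2 fold changes were -0.02 (SE 0.095) for Hk2 and 0.00 (SE 0.11) for Hk1. Gpi1, which interconverts glucose 6-phosphate and fructose 6-phosphate, ranged from 40.0 to 51.6 RPKM (log2 fold change 0.17, SE 0.098), and Tpi1, which interconverts the triose phosphates, from 80.1 to 110.7 RPKM (-0.16, SE 0.11). The phosphofructokinase subunits, which form the committed step, had similar RPKM: Pfkl at 16.6 to 25.9, Pfkm at 17.005 to 24.2 and Pfkp at 22.9 to 28.03. The lengths used were 6675, 3340 and 13401 bases, while the longest coding transcripts are 3730, 2879 and 4145 bases. Similar RPKM therefore need not mean similar amounts of the 3 transcripts. The log2 fold changes of Pfkl, Pfkm and Pfkp were -0.07 (SE 0.15), -0.19 (SE 0.13) and -0.06 (SE 0.095), and none passed the test. The Pfkm share of the 3 subunits was 32.0% and 32.4% in siCtrl against 29.8%, 30.1% and 30.9% in siEwsr1, lower in all 3 libraries with the same smallest exact p of 0.2.

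**Figure D3:**
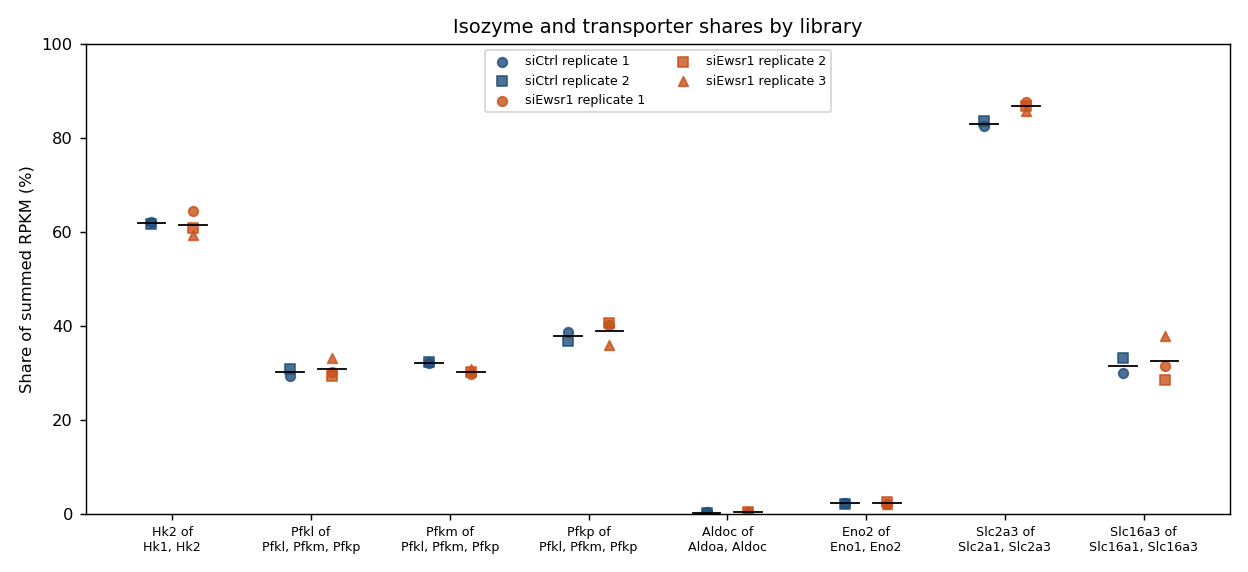
Share of the summed RPKM of the members of an enzyme or transporter family taken by one gene (percent, vertical axis) in each siCtrl library (blue) and siEwsr1 library (orange), with group means as bars. The shares of Slc2a3 and Pfkm do not overlap between the groups, and the other 6 plotted do.

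The lower enzymes included the most abundant members. Ldha, the lactate dehydrogenase subunit that favours pyruvate as substrate, stood at 317 and 353 RPKM in siCtrl and at 319, 297 and 343 RPKM in siEwsr1, and ranked 102 of 15738 protein-coding genes above 0 by mean RPKM. The groups overlapped and the log2 fold change was -0.05 (SE 0.090, 95% interval -0.25 to 0.14). Ldhb, the heart-type subunit, was at 0 in all 5 libraries; a count of 0 allows up to 0.0895 to 0.127 RPKM per library, so Ldha was at least 2509-fold higher than Ldhb in each. Such limits cover counting error only.

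Pkm, pyruvate kinase of muscle and tumour type, stood at 207 and 243 RPKM in siCtrl and at 184, 155 and 207 RPKM in siEwsr1. All siEwsr1 libraries were below both siCtrl libraries, but siEwsr1 replicate 3 (207.332 RPKM) lay just under siCtrl replicate 1 (207.338 RPKM). The log2 fold change of -0.30 (SE 0.12) did not pass (limma adjusted p = 0.179). Gene-level values do not separate the PKM1 and PKM2 splice forms. Gapdh, which oxidises glyceraldehyde 3-phosphate and is widely used as a reference gene, stood at 82.4 and 85.6 RPKM in siCtrl and at 71.0, 63.0 and 100 RPKM in siEwsr1. The siEwsr1 libraries lay on both sides of the controls and differed among themselves by 1.59 times, with a log2 fold change of -0.12 (SE 0.15). The remaining lower enzymes overlapped between the groups: Pgk1, the first ATP-making step, ranged from 110.6 to 125 RPKM, Pgam1, which moves the phosphate of phosphoglycerate, from 61.3 to 70.4, Eno1, the widespread enolase, from 111.5 to 151, and Eno2, the neuronal enolase, from 2.71 to 3.28 RPKM. Their log2 fold changes ran from -0.04 to 0.06, and that of Pgam1, -0.01, turned sign under median-of-ratios scaling. Eno2 made up 2.09% to 2.47% of the summed RPKM of Eno1 and Eno2. Enolase genes outside the members are not in this share.

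The level of the enzymes as a group varied between the siEwsr1 libraries. The summed RPKM of the 17 was 1422 and 1526 in siCtrl and 1420, 1256 and 1597 in siEwsr1, so siEwsr1 held both the lowest and the highest library. The median deviation of the tested enzymes from the siCtrl mean, on the log2 scale, was -0.05, -0.14 and 0.09 in siEwsr1 replicates 1, 2 and 3. Beside this, the share of reads on genes of cytosolic ribosomal proteins was 5.96% and 6.20% in siCtrl and 5.83%, 5.42% and 5.92% in siEwsr1. The share on mitochondrial ribosomal RNA was 1.55% and 0.80% in siCtrl and 1.66%, 2.42% and 1.67% in siEwsr1, highest in the library where the enzymes were lowest. The part of either in the enzyme values was not tested. Without siEwsr1 replicate 3, 11 of the 32 members would be called, 4 higher (Bnip3, Bnip3l, Hif1a and Slc2a3) and 7 lower (Gapdh, Pfkfb3, Pfkl, Pfkm, Pkm, Tpi1 and Vegfa), but in that fit 25.9% of all genes were called.

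**Figure D4:**
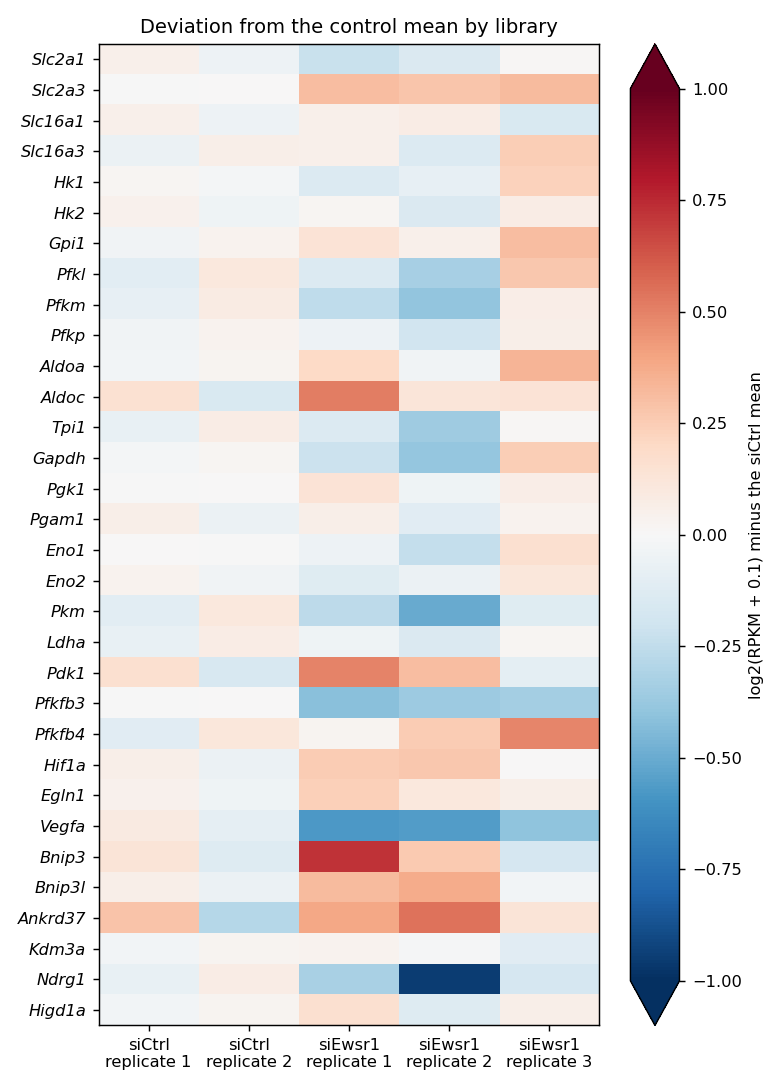
Deviation of each tested member in each library from the siCtrl mean, on the scale of log2(RPKM + 0.1), blue for lower and red for higher. Glycolytic enzymes are mostly blue in siEwsr1 replicate 2 and mostly red in siEwsr1 replicate 3, whereas Vegfa and Pfkfb3 are blue and Slc2a3 is red in all 3 siEwsr1 libraries.

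Several enzymes have processed pseudogenes, copies of the spliced message elsewhere in the genome, and how reads matching several places were counted is not given in the sources used here. Of the 50-base stretches of the Gapdh message, 82.5% also occur in transcripts of other annotated genes, against 72.2% for Eno1, 68.0% for Pgk1, 41.5% for Pgam1, 34.4% for Pkm and 16.6% for Ldha. Between Pkm and Ldha lay Ldhb at 27.0%, Bnip3l at 23.4%, Bnip3 at 21.9% and Gpi1 at 19.3%. Gapdh had 169 annotated pseudogene copies, of which 67 had reads, and reads on the copies came to 20.8% to 24.2% of those on Gapdh itself. The copy Gm13394, 99.9% identical to Gapdh over 1000 bases, was listed at 71.4 and 77.7 RPKM in siCtrl and at 57.4, 54.3 and 78.7 RPKM in siEwsr1. Its order across libraries was close to that of Gapdh, lowest in siEwsr1 replicate 2 and highest in siEwsr1 replicate 3. The levels of Gapdh, Eno1, Pgk1, Pgam1 and Pkm are therefore uncertain. To a smaller extent this holds for Ldhb, Bnip3l, Bnip3, Gpi1 and Ldha. Vegfa shared 0.147% and Pfkfb3 0.610% of such stretches with other genes, and neither had a pseudogene copy.

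Of the 3 regulators of glycolysis, Pfkfb3 passed the test. Pfkfb3 (chr2:11471433-11554077, minus strand) encodes the bifunctional enzyme that makes fructose 2,6-bisphosphate, the strongest activator of phosphofructokinase, and is itself a HIF target. It stood at 9.19 and 9.29 RPKM in siCtrl and at 6.77, 7.01 and 7.32 RPKM in siEwsr1. The groups did not overlap and each was tight. The log2 fold change was -0.38 (SE 0.090, 95% interval -0.57 to -0.18), a decrease of 22.9%, with a limma adjusted p of 0.0413. The call was near the threshold: it held in 8 of 16 alternative settings, and was lost with the variance trend on mean RPKM, with a pseudocount of 1, with no filter on low reads and without trend and robust moderation. It was also lost without any 1 of siCtrl replicate 1, siCtrl replicate 2, siEwsr1 replicate 1 or siEwsr1 replicate 2 (limma adjusted p 0.0817 to 0.395), while the log2 fold change stayed between -0.39 and -0.34 in all 16. Pfkfb4, a related bifunctional enzyme, ranged from 1.197 to 1.89 RPKM (log2 fold change 0.26, SE 0.19). Pdk1, the kinase that shuts pyruvate dehydrogenase and a standard HIF target, stood at only 0.0520 to 0.137 RPKM, or 7 to 18 reads per library, too few to resolve a change (log2 fold change 0.23, SE 0.38).

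Of the oxygen-sensing machinery, Hif1a and Egln1 were expressed and the other 2 genes were close to 0. Hif1a, the oxygen-regulated alpha subunit of HIF-1, stood at 70.6 and 65.6 RPKM in siCtrl and at 79.7, 80.5 and 68.9 RPKM in siEwsr1. The third siEwsr1 library lay between the controls, and the log2 fold change of 0.18 (SE 0.10) did not pass (limma adjusted p = 0.337). Egln1 (PHD2), the main prolyl hydroxylase acting on HIF-1 alpha, stood at 17.5 and 16.7 RPKM in siCtrl and at 19.9, 18.01 and 17.9 RPKM in siEwsr1, with no overlap but a log2 fold change of only 0.13 (SE 0.097). Epas1 (HIF-2 alpha) was at 0 in 4 libraries and had 3 reads in siEwsr1 replicate 1. Egln3 (PHD3), itself strongly induced by HIF, had 8 and 8 reads in siCtrl and 4, 0 and 7 reads in siEwsr1. Neither was tested.

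Of the 7 further HIF targets among the members, Vegfa passed the test. Vegfa (chr17:46016993-46032369, minus strand) stood at 38.1 and 33.8 RPKM in siCtrl and at 23.6, 23.9 and 27.3 RPKM in siEwsr1. Every siEwsr1 library was below both controls. The log2 fold change was -0.51 (SE 0.098, 95% interval -0.73 to -0.30), a decrease of 29.9%, with a limma adjusted p of 0.0184. The call held in 10 of 16 alternative settings. It was lost with the variance trend on mean RPKM, with no filter on low reads, without trend and robust moderation, and without any 1 of siCtrl replicate 1, siCtrl replicate 2 or siEwsr1 replicate 1 (limma adjusted p 0.132 to 0.275), while the log2 fold change stayed between -0.59 and -0.41 in all 16.

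The other targets gave no call. Bnip3 and Bnip3l, which mark mitochondria for removal, had log2 fold changes of 0.27 (SE 0.22) and 0.22 (SE 0.13). Bnip3 varied most within siEwsr1 among members above 1 RPKM, at 14.2, 10.2 and 7.78 RPKM, against 9.49 and 7.98 RPKM in siCtrl. Ankrd37, an ankyrin repeat protein, ranged from 2.06 to 3.65 RPKM (log2 fold change 0.35, SE 0.23). Kdm3a, a histone H3 lysine demethylase, was flat at 13.0 to 14.3 RPKM (log2 fold change -0.03, SE 0.089, 95% interval -0.23 to 0.17). Higd1a, a protein of the inner mitochondrial membrane, ranged from 20.2 to 24.7 RPKM (log2 fold change 0.03, SE 0.11). Ndrg1, a widely used hypoxia marker, was at 0.135 to 0.385 RPKM, or 19 to 44 reads, lower in all siEwsr1 libraries but with a wide interval (log2 fold change -0.48, 95% interval -1.15 to 0.19). In a cell population, fewer cells expressing a gene and less RNA per cell cannot be told apart.

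HIF binds a short core, ACGTG or GCGTG, and the promoters of the 2 called genes are printed with that of Ldha, the most abundant member, which was not called. These 3 genes were picked after their values were seen. Each window of 300 bases lies mostly before a RefSeq start site (GRCm38.p6) and runs 5′ to 3′ along the gene, and capitals mark the core on either strand (CACGT and CACGC are the cores read on the other strand, and CACGTG holds ACGTG on both).

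Vegfa, chr17:46032328-46032627, minus strand: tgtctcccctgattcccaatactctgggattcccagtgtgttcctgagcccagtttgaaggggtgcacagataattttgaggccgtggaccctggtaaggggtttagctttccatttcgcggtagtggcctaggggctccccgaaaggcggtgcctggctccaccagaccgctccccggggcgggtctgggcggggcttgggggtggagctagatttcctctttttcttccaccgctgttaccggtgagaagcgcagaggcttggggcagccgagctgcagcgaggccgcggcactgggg

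Pfkfb3, upstream start, chr2:11553880-11554179, minus strand: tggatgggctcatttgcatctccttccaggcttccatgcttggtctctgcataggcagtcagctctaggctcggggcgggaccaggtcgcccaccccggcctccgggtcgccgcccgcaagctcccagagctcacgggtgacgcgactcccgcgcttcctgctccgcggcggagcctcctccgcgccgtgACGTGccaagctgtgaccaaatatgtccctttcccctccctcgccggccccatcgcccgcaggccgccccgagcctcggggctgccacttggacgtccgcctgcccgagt

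Pfkfb3, internal start, chr2:11502041-11502340, minus strand: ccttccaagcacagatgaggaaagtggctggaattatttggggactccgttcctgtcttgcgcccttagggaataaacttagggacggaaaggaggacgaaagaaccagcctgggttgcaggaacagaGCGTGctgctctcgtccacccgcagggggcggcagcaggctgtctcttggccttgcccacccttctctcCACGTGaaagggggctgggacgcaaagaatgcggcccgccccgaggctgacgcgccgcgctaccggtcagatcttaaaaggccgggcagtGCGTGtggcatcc

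Ldha, chr7:46845554-46845853, plus strand: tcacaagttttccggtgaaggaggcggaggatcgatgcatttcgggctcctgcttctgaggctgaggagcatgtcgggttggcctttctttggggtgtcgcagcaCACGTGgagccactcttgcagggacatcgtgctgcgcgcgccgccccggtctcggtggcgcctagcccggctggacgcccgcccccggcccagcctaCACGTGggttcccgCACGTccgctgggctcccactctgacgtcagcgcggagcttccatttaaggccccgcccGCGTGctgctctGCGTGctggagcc

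The Vegfa window printed holds no core, the Pfkfb3 windows hold 1 and 4 and the Ldha window holds 7, counting both strands. Vegfa and Ldha each have a second RefSeq start, not printed, whose window holds 2. The known hypoxia element of Vegfa lies further upstream than this window reaches. A promoter window was found for 31 of the 35 members, not for Slc2a3, Epas1, Bnip3l and Ndrg1. A core was present in at least 1 window for 28 of these 31 (90.3%). The share was 67.2% of the 9998 tested genes with a window and 46.7% of all 27025 genes with one. The 31 members had 47 windows and the 27025 genes 32851, and a gene with more windows has more chances of a match. These shares are therefore not on equal terms. The 3 members with no core in any window were Gpi1, Tpi1 and Eno2, none of which was called. A match shows only the letters, not binding.

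The other genes of these pathways were read from 9 lists outside the members, chosen with earlier results of these data known. The lists held 150 gene names in all, of which 148 were found in the annotation. Of the tested genes, 5 were called higher, 5 lower and 101 not, with a median log2 fold change of 0.01 against -0.01 over all genes. The longest list was that of 41 further HIF targets. Of 31 tested, 1 was called higher and 4 lower, 23 were below 0 and 8 above (48.3% of all genes tested were above 0), and the median log2 fold change was -0.17. The groups did not overlap for 14 lower and 5 higher of the 31, against 21.3% lower and 18.6% higher of all genes tested. In shares, 12.9% of the tested genes of this list were called lower, against 2.75% of all genes tested. The 1 of 31 called higher stands against 2.38% of all genes tested. The 10 calls in the lists outside the members each held in 8 to 12 of the alternative settings. Without siCtrl replicate 1, and likewise without siCtrl replicate 2, fits with a lone control in which few genes of any kind passed, none of these lists' genes passed. Leaving out siEwsr1 replicate 1 gave 1 higher and 0 lower, leaving out replicate 2 of that group gave 6 and 4, and leaving out its replicate 3 gave 22 and 16. The fold changes kept their direction and much of their size over all settings, for example from -0.95 to -0.76 for Hmox1, 0.72 to 0.85 for Txnip and 0.50 to 0.64 for Pdp1.

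Hmox1, the haem-degrading enzyme, fell from 46.2 and 44.5 RPKM to 22.7, 23.3 and 29.7 RPKM (log2 fold change -0.84, SE 0.12; limma adjusted p = 0.00519). Ddit4 (REDD1), an inhibitor of mTORC1, fell from 85.5 and 74.5 RPKM to 55.6, 47.5 and 60.1 RPKM (-0.54, SE 0.11; limma adjusted p = 0.0250). Both were lower in every siEwsr1 library than in either control. Stc2, a secreted glycoprotein, fell from 10.03 and 9.15 RPKM to 6.24, 6.75 and 7.02 RPKM (-0.50, SE 0.10; limma adjusted p = 0.0252). P4ha2, a collagen prolyl hydroxylase subunit, fell from 39.0 and 43.8 RPKM to 27.3, 26.9 and 33.0 RPKM (-0.50, SE 0.10; limma adjusted p = 0.0255). In the other direction Tfrc, the transferrin receptor, rose from 67.3 and 61.7 RPKM to 96.2, 100 and 80.0 RPKM (0.52, SE 0.12; limma adjusted p = 0.0318). Mif, a cytokine and the most abundant gene of this list, was at 411 to 615 RPKM and was not called (log2 fold change -0.27).

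Vegfa, Ddit4 and Stc2 are also known targets of ATF4, the transcription factor of the integrated stress response. Atf4 itself, picked after its values were seen, stood at 436 and 440 RPKM in siCtrl and at 307, 276 and 324 RPKM in siEwsr1 (log2 fold change -0.52, SE 0.088; limma adjusted p = 0.0107). Ddit3 (CHOP), a factor of the same response and picked in the same way, stood at 37.9 and 40.7 RPKM in siCtrl and at 22.7, 16.7 and 25.2 RPKM in siEwsr1 (-0.87, SE 0.15; limma adjusted p = 0.0120). Both were below the controls in all 3 siEwsr1 libraries, as were Vegfa, Ddit4 and Stc2. Their part in the levels of those genes was not tested.

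**Figure D5:**
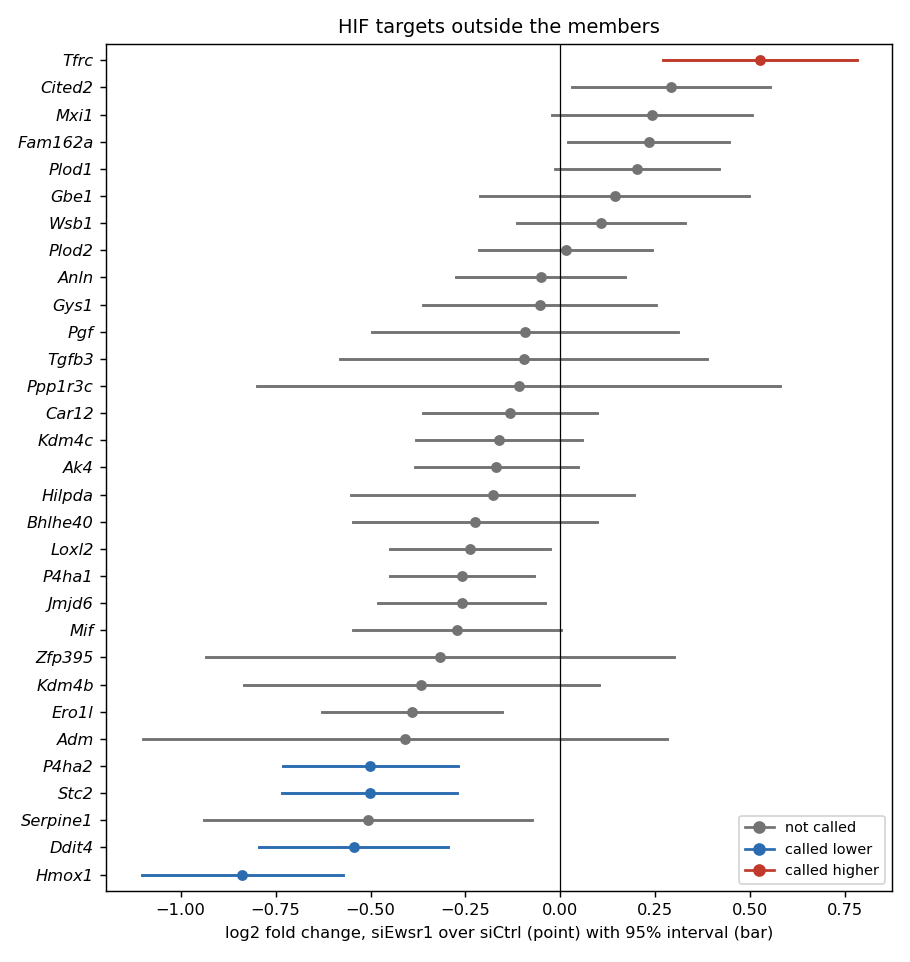
Log2 fold change of siEwsr1 over siCtrl (point) with its 95% interval (bar) for the 31 tested HIF targets outside the members, ordered by size. Genes called lower are blue (Hmox1, Ddit4, Stc2 and P4ha2), the gene called higher is red (Tfrc), and 23 of the 31 points lie below 0.

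Among 12 tested components of the HIF pathway outside the members, P4htm, a transmembrane prolyl hydroxylase that can act on HIF alpha subunits, fell from 3.72 and 4.34 RPKM to 1.86, 2.02 and 2.31 RPKM (log2 fold change -0.92, SE 0.15; limma adjusted p = 0.0107). In this list 6 genes were above 0 and 6, P4htm among them, below. The groups did not overlap for 8 of the 12 (3 higher and 5 lower), against 39.9% of all genes tested (18.6% higher and 21.3% lower). An unadjusted limma p under 0.05 was found for 7 of the list, with no share over all genes given beside it. Elob, an adaptor of the VHL ubiquitin ligase and the most abundant of the list, was at 62.0 to 107 RPKM and was not called (-0.37). Txnip, a glucose-responsive inhibitor of glucose uptake and of thioredoxin, rose from 8.08 and 7.58 RPKM to 12.7, 12.8 and 14.8 RPKM (0.78, SE 0.11; limma adjusted p = 0.00477). In the same list of 7 tested glucose and Myc sensing factors, Mycn, the Myc family member typical of neuroblastoma, rose from 7.33 and 7.57 RPKM to 9.88, 9.64 and 11.03 RPKM (0.46, SE 0.11; limma adjusted p = 0.0403). Mlx, the shared partner of the glucose-sensing factors, was the most abundant of the list at 26.1 to 29.9 RPKM and was not called (-0.12).

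Further along the fate of pyruvate, Pdp1, the phosphatase that reactivates pyruvate dehydrogenase, rose from 9.98 and 9.35 RPKM to 14.1, 15.5 and 12.8 RPKM (log2 fold change 0.56, SE 0.11; limma adjusted p = 0.0241). It was the 1 call among 9 tested genes of pyruvate entry, whose most abundant gene, Pdha1, was at 85.7 to 91.5 RPKM (0.05). In the citrate cycle, 15 of 17 tested genes were above 0, with a median log2 fold change of 0.11. Idh3a, the catalytic subunit of the NAD-dependent isocitrate dehydrogenase, was the 1 called, rising from 32.1 and 28.3 RPKM to 41.8, 44.2 and 39.4 RPKM (0.48, SE 0.099; limma adjusted p = 0.0249). Mdh1, the cytosolic malate dehydrogenase and most abundant of that list, was at 206 and 216 RPKM in siCtrl and at 276, 256 and 251 RPKM in siEwsr1, and did not pass (0.32; limma adjusted p = 0.0610).

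None of the tested genes passed in the lists of further glycolytic isozymes and helpers (16 genes), the pentose phosphate pathway (7), glycogen metabolism (12) and gluconeogenesis (3). Their numbers of tested genes with an unadjusted p under 0.05 were 3, 2, 2 and 2. The most abundant genes of these lists were Bsg, the chaperone of the lactate carriers, at 208 to 260 RPKM, Taldo1, a transaldolase, at 44.1 to 59.7 RPKM, Ugp2, which makes UDP-glucose, at 83.4 to 105 RPKM, and Pck2, the mitochondrial PEP carboxykinase, at 7.10 to 10.95 RPKM. Their log2 fold changes were -0.14, 0.10, 0.06 and -0.35.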

How the data were processed

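The deposited values are RPKM per gene, 1 table per library. Per the submitters' processing notes, the tools included STAR 2.5.2b and featureCounts 1.5.1 with GRCm38; per the labels' protocols, the libraries were stranded total RNA depleted of ribosomal RNA. How strand and multiply mapped reads were counted is not given in the sources used here, so overlapping antisense genes may share reads. In the deposited RPKM, values under 1 were intact and values of 1 or more had lost the decimal point. Because RPKM times exon length times library total is a whole number of reads (98.5% to 98.6% of intact values, within 1e-06 reads), the point was put back where it gave whole reads in all libraries, taking similar levels across libraries as more likely. Exon lengths came from GENCODE M21, or were solved from the values for 613 of 27255 genes above 0 (among members, Pgam1). For 9 members (Slc16a1, Hk1, Hk2, Gpi1, Pfkl, Gapdh, Pgam1, Pkm and Ldha) the reading chosen was not the lowest possible. 121 genes whose reading was not clear (odds under 20) were left out, Pdhb among the lists. Recovered reads differed from each library total by -0.0124% to -0.00739%. The settings of this step were revised with simulated data and the readings of Ewsr1, Ldha and Pkm in view. In simulated data, changes near 10-fold between groups were read as no change and changes near 4-fold were often left out, so such changes may be missed.

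To be tested, a gene needed 10 reads or more, scaled to the median library, in 2 or more libraries. Tests used limma 3.58.1 (R 4.3.3) on log2(RPKM + 0.1) after trimmed-mean scaling, with group as the only term, robust moderation and a variance trend, Benjamini-Hochberg adjustment over 14888 genes and calls under 0.05. Fold changes are on this scale, which understates low genes. The trend was first fitted on mean RPKM, and no member was called. It was then moved, after that result was seen, to the mean log2 CPM of the recovered reads, which follows counting error, and the first form is kept as an alternative. The restored values are not the deposited text, so no count model was used as the main test. Isozyme shares were tested with a two-sided exact permutation test (SciPy 1.17.1). Pseudogene copies were found with blastn 2.17.0 (at least 90% identity over 300 bases).

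Members, gene lists and tests were chosen with earlier results of these data known. All members are named; of the other lists, the called genes and the most abundant tested gene are. Groups came from the treatment label. Replicates 1 and 2 share numbers across the groups, but deviations of same-numbered libraries did not go together (r = -0.07 over 14888 genes, 2 pairs), so the numbers were not used as pairs. Alternatives covered the pseudocount, filters, scaling, weights, trend, decimal readings, a replicate block and each library left out.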

Additional observations from a re-analysis of the deposited data

How the results depend on the processing

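Over all genes tested, 355 were called higher and 409 lower. These counts became 166 and 214 with a pseudocount of 1, and 20 and 40 with no filter on low reads. They were 0 and 0 without trend and robust moderation, and 115 and 147 with the variance trend on mean RPKM. The trend on mean RPKM was the form fitted first, and the reported form replaced it after that fit called no member. Leaving out 1 library at a time gave 8 to 1874 higher and 4 to 1892 lower. Members called lower, 2 as reported, became 1 with a pseudocount of 1 and 0 with no filter, without trend and robust moderation, and with the trend on mean RPKM, and ran from 0 to 7 with 1 library left out; members called higher, 0 as reported, ran from 0 to 4. List genes outside the members, 5 higher and 5 lower as reported, became 1 and 3 with a pseudocount of 1, 0 and 0 with no filter and without trend and robust moderation, 1 and 2 with the trend on mean RPKM, and ran from 0 to 22 higher and from 0 to 16 lower with 1 library left out. The cause of these shifts was not tested, except that fewer libraries or a larger number of low genes enter some fits. Where a siCtrl library is left out, the lone control is assumed to vary like the siEwsr1 libraries. The log2 fold change of Vegfa stayed between -0.59 and -0.41 and that of Hmox1 between -0.95 and -0.76 in all settings run.

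With the replicate block, in which siEwsr1 replicate 3 has a block of its own and so adds nothing, 1618 genes were called higher and 1663 lower (22.0% of genes tested). The same block gave 4 members higher and 6 lower, and 19 list genes higher and 15 lower. Since the numbers were not shown to pair the samples, these counts are not used.

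Ewsr1 kept its direction throughout, and missed the threshold without trend and robust moderation alone (log2 fold change -0.96; limma adjusted p = 0.0720). Members that turned sign all had log2 fold changes within 0.2 of 0 in the reported fit. With 1 library left out, Gapdh reached -0.301 and Pfkl -0.235, and both were called lower without siEwsr1 replicate 3. With median-of-ratios scaling Slc16a1 was at 0.0047 and Pgam1 at 0.0046, and with library totals alone Hk1 was at -0.011. Under the replicate block the log2 fold changes were 0.0636 for Slc16a1, -0.0456 for Slc16a3, -0.110 for Hk1 and 0.0102 for Kdm3a. With 1 library left out, log2 fold changes ran from -0.0457 to 0.0636 for Slc16a1, -0.0456 to 0.165 for Slc16a3, -0.110 to 0.0917 for Hk1, -0.0627 to 0.0634 for Hk2, -0.235 to 0.0807 for Pfkl, -0.123 to 0.0176 for Pfkp, -0.301 to 0.0309 for Gapdh, -0.0545 to 0.0620 for Pgam1, -0.146 to 0.0705 for Eno1, -0.0884 to 0.0435 for Eno2, -0.114 to 0.0295 for Ldha, -0.0459 to 0.0102 for Kdm3a and -0.0163 to 0.127 for Higd1a. Differences in share, in percentage points, ran from -1.83 to 0.760 for Hk2, -0.356 to 1.57 for Pfkl, -0.0124 to 0.0619 for Aldoc, -0.0855 to 0.109 for Eno2 and -1.61 to 3.10 for Slc16a3. Among the values of single genes under all alternatives, 551 kept direction and side of the threshold, 78 lost a call and 17 gained one. A further 29 reversed direction.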

Other observations

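Glycolytic genes are common references for a knockdown. Relative to Gapdh in the same library, the change of Ewsr1 from the siCtrl mean was -32.8% to -56.3% in the single siEwsr1 libraries and -43.5% for their mean. Relative to Pgk1 the change of the mean was -50.6%, with libraries from -47.2% to -54.1%. It was -46.8% relative to Ldha (-43.4% to -49.1%), -48.0% relative to Hk2 (-43.1% to -50.8%) and -54.1% relative to Aldoa (-47.4% to -59.0%). The scaled RPKM of Ewsr1 itself fell by 48.7%. Of these references, Gapdh gave the widest range across the siEwsr1 libraries.

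Values of some noradrenergic neuroblastoma markers also differed between the groups. Isl1, a homeodomain factor of sympathetic neurons, stood at 8.46 and 7.97 RPKM in siCtrl and at 15.1, 15.6 and 13.1 RPKM in siEwsr1 (log2 fold change 0.83; limma adjusted p = 0.00454). Chgb, a protein of secretory granules, stood at 348 and 328 RPKM in siCtrl and at 452, 449 and 463 RPKM in siEwsr1 (log2 fold change 0.44; limma adjusted p = 0.0144). Reads on processed pseudogenes were 0.670% to 0.739% of the counted reads in every library, and 2342 to 2648 such genes were above 0.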
